A study of Mus musculus with 12 samples.

Results

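The genes described here are 33 markers and regulators of blood lineages other than natural killer (NK) cells: 9 of B cells, 10 of T cells, 12 of myeloid cells and 2 of erythroid cells, out of 21887 protein-coding genes of mouse assembly GRCm38.p6, the assembly behind mm10. Open chromatin at these genes was read from ATAC-seq peak lists of NK cells from mouse spleen. Intervals no more than 50 kb from a gene body were assigned to the closest protein-coding gene, so that one closer to a neighbour was counted there. The farthest region kept, Bcl11b 5, lay 42.8 kb from its gene. Regions are numbered along the chromosome, and above and below a gene mean at higher and lower coordinates. By this rule 48 of 45082 regions belonged to 20 of the 33 genes. They comprised 20 regions of B cell genes, 14 of T cell genes, 12 of myeloid genes and 2 of erythroid genes.

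There were 4 groups of 3 libraries. KO cells came from mice named Reg-1ΔNK, which lack Regnase-1 in NK cells, and were stimulated with IL-12/18 or left as controls. WT cells came from mice named Reg-1 fl/fl, whose Regnase-1 gene is floxed and intact, and were likewise stimulated or left as controls. Regnase-1 cuts messenger RNAs of inflammatory genes, and IL-12 with IL-18 drives NK cells to make interferon gamma. The driver of the deletion, the length of stimulation and the way the NK cells were isolated are not given in the sources used here. Nothing in the labels says that the replicates were separate animals, and the spread that p-values rest on may therefore be technical.

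Blood lineages share early progenitors, and each lineage is set by transcription factors that open its own regulatory DNA: Pax5 and Ebf1 in B cells, Bcl11b in T cells, Spi1 (PU.1) and Cebpa in myeloid cells, and Klf1 in erythroid cells. NK cells are innate lymphocytes close to T cells, and they share several surface proteins and factors with T and myeloid cells. A transposase cuts accessible DNA in ATAC-seq, so an interval marks accessible chromatin and says nothing by itself of transcription.

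The deposited lists held 35110 to 63128 distinct intervals per library, and read depth is unknown because peak lists do not give it. The 35110 strongest intervals of each library, ranked by the deposited −log10 q, were therefore compared. A region is called in a library when one of these intervals overlaps it, and a weaker interval is a deposited interval outside them. Equal lists were not equally stringent: the weakest interval kept had a −log10 q of 1.31, 4.60 and 13.2 in KO stimulated libraries, 8.84 to 13.6 in KO control, 16.6 to 27.05 in WT stimulated and 5.76 to 15.9 in WT control libraries. In a comparison list chosen with results known, 19 of 20 NK genes, among them Ncr1, Klrb1c and Eomes, had a region called in all 12 libraries. The other one, Nkg7, had its promoter called in 12, but its regions lie nearer to other genes. Of 20 genes of non-blood tissues, 2 had a region called in 12 libraries and 8 had no deposited interval. These counts do not single out NK cells. A region called in 12 was also present for 10 of 12 further T cell genes and 8 of 12 further myeloid genes. The counts were 3 of 12 further B cell genes and 2 of 9 further erythroid genes.

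Listed promoter windows of the lineage genes were mostly not called. An uncalled window does not exclude open chromatin just outside it. Regions called in 12 libraries lay outside the windows, 0.4 kb from the listed start of Klf1 and 0.5 kb from those of Epor and Bcl11b. The Bcl11b region overlapped the upstream end of the gene body, which reaches beyond the listed start. RefSeq promoter windows on GRCm38.p6, from 250 bases before to 50 bases after a listed start, were at hand for 23 of the 33 genes. The window was called in all 12 libraries for 2 of the 23, Itgax and Cebpa, and in no library for 18. Among all genes with a listed window 47.1% were called in 12 and 43.4% in none. Among 15 NK genes 10 were called in 12, and among 16 non-blood genes none was called in any library. Of the remaining 3 lineage genes, Cd5 was called in 6 libraries, Cr2 in 2 and Ebf1 in 1. Counting weaker intervals, the Cd5 window held one in 9 libraries, the Cr2 window in 7 and the Cd3g window in 1.

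The windows of 6 genes are printed 5′ to 3′ because they carry this contrast: both windows that were always called, the one called in 6 libraries, and 3 windows of genes at the core of their lineage that were never called. The order of positions is Itgax (integrin alpha X, CD11c) chr7:128129300-128129599 on the plus strand, Cebpa (C/EBP alpha) chr7:35119043-35119342 on the plus strand, Cd5 chr19:10738925-10739224 on the minus strand, Klf1 chr8:84901732-84902031 on the plus strand, Cd3e chr9:45009562-45009861 on the minus strand and Cd8a chr6:71373177-71373476 on the plus strand. Capitals mark matches, on either strand, to any of 6 motifs. AGGAAG is bound by PU.1 and other ETS factors and was found in 34.4% of the 21263 listed windows of protein-coding genes. The RUNX motif TGTGGT was found in 15.0% of them. The GATA factor motif was searched as AGATAA, with matches in 9.65%. Proteins of the C/EBP family bind TTGCNNAA, present in 10.2%. For KLF factors the letters were CACACCC, present in 8.02% of windows. The octamer ATGCAAAT occurred in 1.66%. No match printed overlaps another.
Itgax: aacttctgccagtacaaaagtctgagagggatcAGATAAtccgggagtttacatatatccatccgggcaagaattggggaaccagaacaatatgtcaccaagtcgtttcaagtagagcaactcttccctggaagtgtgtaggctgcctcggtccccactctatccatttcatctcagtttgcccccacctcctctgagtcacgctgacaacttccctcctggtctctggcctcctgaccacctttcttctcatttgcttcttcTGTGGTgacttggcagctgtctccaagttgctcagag
Cebpa: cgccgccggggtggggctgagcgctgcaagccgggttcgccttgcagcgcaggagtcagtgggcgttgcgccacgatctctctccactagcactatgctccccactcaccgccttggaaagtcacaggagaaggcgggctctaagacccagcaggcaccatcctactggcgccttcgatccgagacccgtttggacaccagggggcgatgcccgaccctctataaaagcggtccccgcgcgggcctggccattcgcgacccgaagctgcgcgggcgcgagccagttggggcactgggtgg
Cd5: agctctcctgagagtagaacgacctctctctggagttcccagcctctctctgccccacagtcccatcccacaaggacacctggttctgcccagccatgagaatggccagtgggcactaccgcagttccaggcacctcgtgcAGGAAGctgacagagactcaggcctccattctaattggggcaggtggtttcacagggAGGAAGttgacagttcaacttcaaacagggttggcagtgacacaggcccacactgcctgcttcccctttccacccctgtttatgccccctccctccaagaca
Klf1: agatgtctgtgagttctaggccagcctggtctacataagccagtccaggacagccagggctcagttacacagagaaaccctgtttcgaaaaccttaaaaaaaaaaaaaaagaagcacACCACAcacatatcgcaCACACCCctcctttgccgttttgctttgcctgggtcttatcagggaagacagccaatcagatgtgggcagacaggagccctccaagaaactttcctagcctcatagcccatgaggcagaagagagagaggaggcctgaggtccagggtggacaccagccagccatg
Cd3e: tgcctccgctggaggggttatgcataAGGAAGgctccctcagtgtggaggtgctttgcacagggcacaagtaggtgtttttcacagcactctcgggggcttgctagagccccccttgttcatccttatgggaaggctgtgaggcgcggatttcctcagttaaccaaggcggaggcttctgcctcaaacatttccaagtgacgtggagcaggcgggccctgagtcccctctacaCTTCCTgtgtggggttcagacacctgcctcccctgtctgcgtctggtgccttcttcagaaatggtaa
Cd8a: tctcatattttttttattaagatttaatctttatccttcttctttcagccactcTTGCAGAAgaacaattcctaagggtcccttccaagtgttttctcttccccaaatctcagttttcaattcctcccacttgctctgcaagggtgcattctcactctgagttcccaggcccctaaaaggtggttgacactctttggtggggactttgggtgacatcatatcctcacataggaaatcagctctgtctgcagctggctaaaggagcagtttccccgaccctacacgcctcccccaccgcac

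The Itgax window, called in 12 libraries, held a GATA match 217 bases before the start and a RUNX match downstream of it. The Cebpa window, also called in 12, held no match. The Cd3e window, called in 0 libraries, held 2 ETS matches, and the Cd5 window, called in 6, also held 2. A match is a description of the sequence and not evidence of binding. CpG content went with the calls over all genes, with 5.64% of windows holding 5 or fewer CpG called in 12 libraries and 64.1% of those with 6 or more. Of the 26 windows of lineage genes, 1 of the 15 with 5 or fewer CpG and 1 of the 11 with 6 or more were called in 12. Of 12 NK windows with 5 or fewer CpG, 8 were called in 12. Pax5 had 23 CpG in its window, yet its promoter was called in 0 libraries.

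Counting all regions given to a gene, 13 of the 33 genes had at least 1 region called in all 12 libraries, 7 had regions called in fewer, 6 had only weaker intervals or a call in 1 library, and 7 had no deposited interval in any library. The open genes were Blk and Pax5 among the B cell genes, Bcl11b, Cd3d, Cd3e, Cd5 and Cd6 among the T cell genes, Cd14, Cebpa, Itgax and Spi1 among the myeloid genes, and Epor and Klf1. The genes with no interval were Cd79b, Cd4, Cd8a, Cd8b1, Lyz2, S100a8 and Siglech. Over all protein-coding genes 52.0% had a region called in 12 libraries and 25.7% had no interval, against 39.4% and 21.2% of the 33. Regions called in fewer libraries only were found for 13.3% of all genes and 21.2% of the 33. Only weaker intervals or a call in 1 library were found for 9.01% and 18.2%. By region, 16 of the 48 (33.3%) were called in 12 libraries, beside 46.8% of all regions. Another 8 of the 48 had a deposited interval in all 12 libraries, but not always among the strongest. The same share over all regions is not given here.

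**Figure D1:**
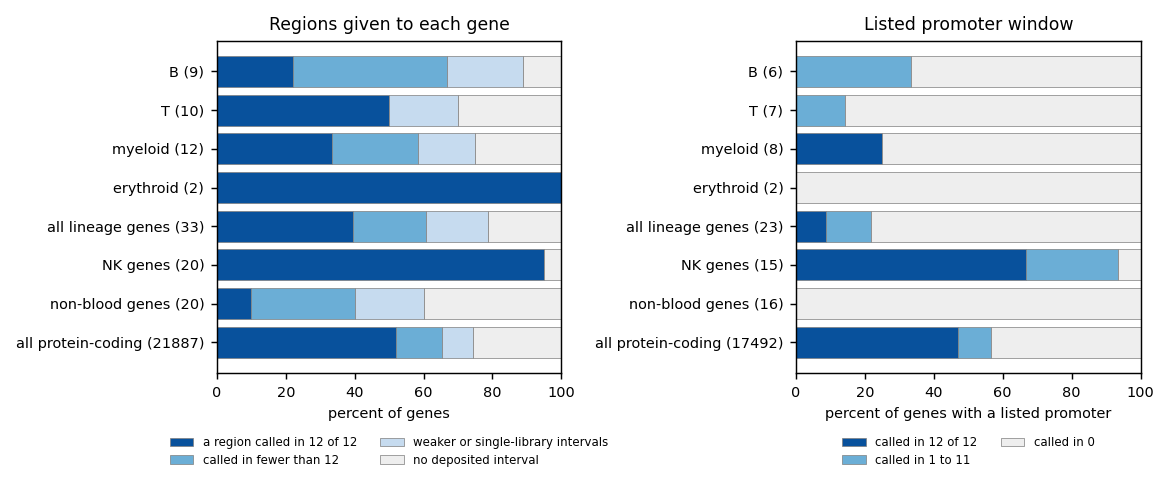
Left, percent of genes in each list by the state of the regions given to them. Right, percent of genes with a listed promoter window by the number of libraries in which the window was called. Numbers in parentheses are genes. The left panel shows 13 of 33 lineage genes with an always-called region, and the right panel 2 of 23 lineage genes with an always-called promoter, beside 10 of 15 NK genes.

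Distance to neighbours bears on these states. No called region overlapping one of the 33 gene bodies was given to another gene. A region called near Cd4, the coreceptor of helper T cells, lay 0.093 kb from its body and was given to a neighbour, and 14 regions within 50 kb of Cd4 belonged to neighbours such as Lag3. Near the B cell gene Cd79a a called region lay 0.202 kb from the body and was likewise given to a neighbour. Neighbours held 5 regions within 50 kb of Cd79a. Around Cd8a, the coreceptor of cytotoxic T cells, the nearest called region lay 39.7 kb away, and around Lyz2, the lysozyme of macrophages, 11.2 kb away.

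**Figure D2:**
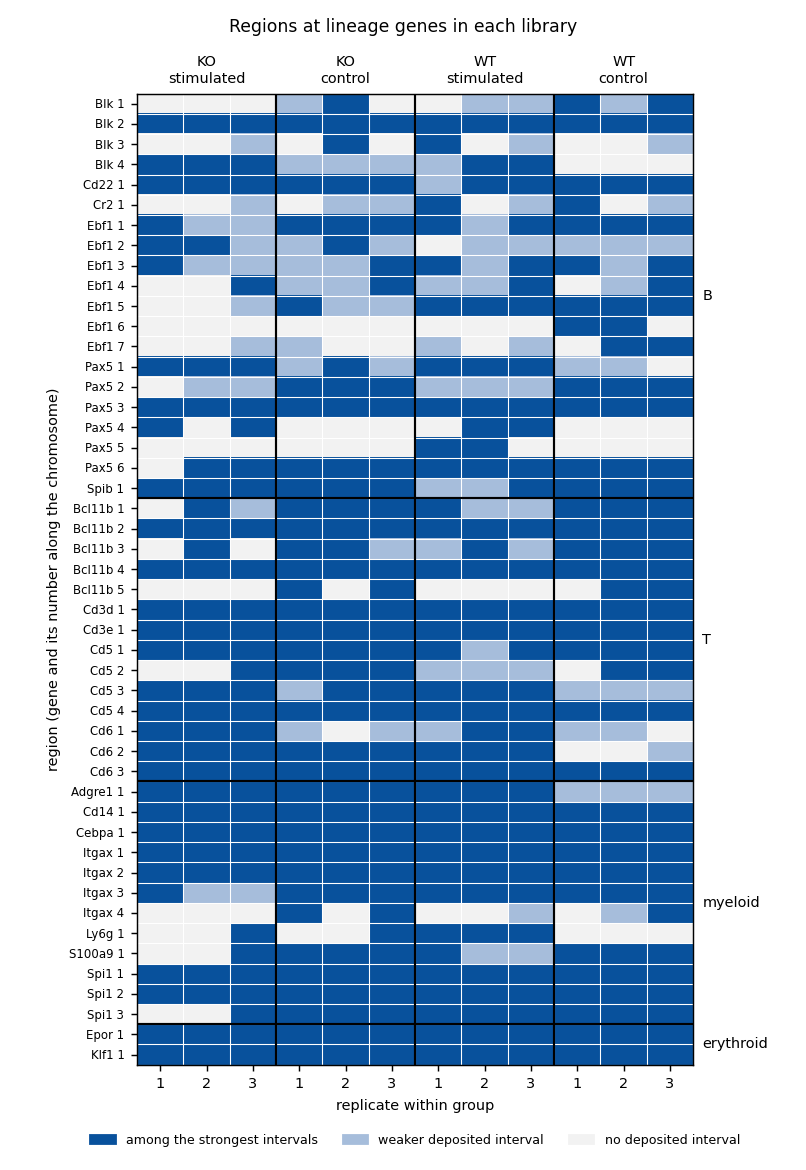
State of the 48 regions (rows, by lineage and gene) in the 12 libraries (columns, by group and replicate). Dark cells are called, light cells hold a weaker deposited interval and pale grey cells hold none. The 16 rows dark throughout are the always-called regions, and the 20 B cell rows are the most mixed, with 2 dark throughout.

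Of the 20 regions of B cell genes 2 were called in all libraries. Cd79a and Cd79b encode the signalling chains of the B cell receptor. Cd79b had no interval, and Cd79a had weaker intervals in 1 library, of WT stimulated cells, with deposited folds of 2.61 and 3.54. Ms4a1, which encodes CD20, had weaker intervals in 2 libraries, both WT stimulated. Cd22, an inhibitory receptor, had 1 region 6.6 kb above its body that was called in 3 KO stimulated, 3 KO control, 2 WT stimulated and 3 WT control libraries. Cr2, the complement receptor CD21, had 1 region at its start, called in 0 KO stimulated, 0 KO control, 1 WT stimulated and 1 WT control library.

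The B cell transcription factors had called regions inside or beside their genes, while their listed promoters were called in 1 library at most. Pax5, which commits cells to the B lineage, had 6 regions, all inside the gene between 5.9 and 85.4 kb from its start, of which Pax5 3 (chr4:44674557-44675621) was called in 12. Ebf1, which acts with Pax5, had 7 regions and none called in 12. Its per-library counts were 3, 1 and 1 in KO stimulated, 2, 2 and 3 in KO control, 3, 1 and 4 in WT stimulated and 4, 4 and 5 in WT control cells. The WT control counts are the highest and overlap those of WT stimulated cells. Spib, an ETS factor of B cells, had 1 region inside the gene, called in all libraries except WT stimulated replicates 1 and 2. Blk, a Src family kinase, had 4 regions, of which Blk 2 (chr14:63376770-63378168) was called in 12, with deposited folds of 5.35 to 29.3.

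Of the 10 T cell genes, 5 had an always-called region, 2 had weaker intervals or a call in 1 library, and 3 had no interval. The CD3 chains of the T cell receptor complex lie side by side on chromosome 9, and the listed promoters of Cd3d and Cd3e were called in 0 libraries. At the downstream end of each gene a region was called in all 12: Cd3d 1 (chr9:44985304-44987667), 3.5 kb from the start, and Cd3e 1 (chr9:44997678-44998938), 10.7 kb from the start. Cd3d 1 was among the strongest intervals of every library. Its rank, with 1 the strongest, was 3030, 1953 and 2506 in KO stimulated, 1740, 1597 and 1630 in KO control, 4103, 4050 and 2848 in WT stimulated and 2304, 916 and 1835 in WT control libraries. The median rank over libraries was 2128.5 for Cd3d 1, beside a median of 11185.5 over all always-called regions. Cd3g had only weaker intervals, in 3 libraries.

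**Figure D3:**
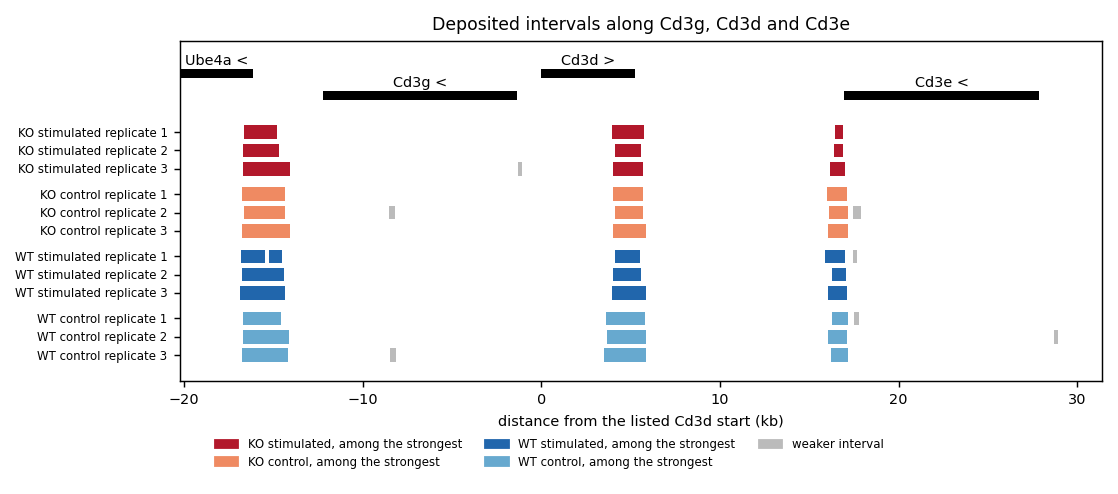
Deposited intervals of each library (rows) along Cd3g, Cd3d and Cd3e, by distance from the listed Cd3d start in kb. Coloured bars are among the strongest intervals of their library and grey bars are weaker, while black bars are gene bodies with > or < for the direction of transcription. All 12 libraries have bars at the downstream ends of Cd3d and Cd3e, and none has a coloured bar at the start of any of the 3 genes.

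Cd4, Cd8a and Cd8b1, the coreceptors, had no deposited interval. Foxp3, the factor of regulatory T cells, had 1 place with intervals, in 1 KO stimulated, 0 KO control, 3 WT stimulated and 0 WT control libraries, and only 1 of these 4 was among the strongest. Bcl11b, the factor of T cell commitment, had 5 regions, and Bcl11b 2 and Bcl11b 4 were called in 12. Cd5 and Cd6, scavenger receptor proteins that tune T cell receptor signals, lie next to each other on chromosome 19 and had 4 and 3 regions, with Cd5 4 (chr19:10763264-10763996) and Cd6 3 (chr19:10831507-10832729) called in 12. Cd5 4, the only always-called region of Cd5, lay 24.2 kb above its body, in the gap between the genes. The Cd6 body begins 50.4 kb from the listed Cd5 start, so Cd5 4 was only slightly closer to Cd5. The Cd5 promoter region, Cd5 2, was called in 1 KO stimulated, 3 KO control, 0 WT stimulated and 2 WT control libraries.

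Of the 12 myeloid genes, 4 had an always-called region, 3 had regions called in some libraries, 2 had only weaker intervals and 3 had none. Mpo, the myeloperoxidase of neutrophil granules, had a weaker interval in 1 library. S100a8, a calprotectin subunit, Siglech, of plasmacytoid dendritic cells, and Lyz2 had none. S100a9, the partner of S100a8, had 1 region 14.1 kb above its body, called in 1 KO stimulated, 3 KO control, 1 WT stimulated and 3 WT control libraries. Csf1r, the receptor of macrophage growth factor, had 1 place of weaker intervals, present in 1 KO stimulated, 1 KO control, 3 WT stimulated and 3 WT control libraries and called in 0. Deposited folds there were 2.81 to 5.26. Ly6g, a neutrophil surface protein, had 1 region 0.7 kb below its body, called in 1 KO stimulated, 1 KO control, 3 WT stimulated and 0 WT control libraries.

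Spi1, which encodes PU.1, had 3 regions in the gene, of which Spi1 1 and Spi1 2 (chr2:91087115-91088698) were called in 12 libraries. Spi1 3 was called in 1 KO stimulated library and in all 9 of the others. Cebpa 1 (chr7:35117772-35119808) covered the Cebpa promoter with ranks of 11293, 10933 and 12128 in KO stimulated, 13123, 11732 and 11197 in KO control, 13891, 10086 and 11917 in WT stimulated and 13253, 12710 and 12204 in WT control libraries. Stimulated and control ranks overlapped in both genotypes, and of all pairs of groups only KO stimulated and WT control did not overlap. Itgax 1 (chr7:128128743-128131551) covered the Itgax promoter and was called in 12. Cd14, a lipopolysaccharide coreceptor, had 1 region over its short body, called in 12. Adgre1, which encodes F4/80 of macrophages, had 1 region 10.3 kb below its body.

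Both erythroid genes were open in every library, outside their listed promoter windows. Klf1 1 (chr8:84902369-84903914) lay inside the gene of the erythroid factor Klf1, 0.4 kb from its start, while its window up to 50 bases after the start was called in 0 libraries. It ranked 6759, 6585 and 6713 in KO stimulated, 6713, 7197 and 6964 in KO control, 8459, 6626 and 6944 in WT stimulated and 4947, 6371 and 6653 in WT control libraries, with overlap of stimulated and control ranks in both genotypes. Epor 1 (chr9:21961286-21963032), inside the gene of the erythropoietin receptor, 0.5 kb from its start, ranked 19397 to 26803 in KO stimulated, 21369 to 24907 in KO control, 20144 to 23151 in WT stimulated and 20027 to 30041 in WT control libraries.

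Stimulation moved few of the 48 regions across the limit of the equal lists. With both genotypes combined, 3 regions were called more often in stimulated libraries, beside 6.62% of all regions (6.25% of the 48), and 1 less often, beside 5.08% (2.08% of the 48). The test was an exact two-sided permutation test of calls within genotype, with Benjamini-Hochberg adjustment over 8834 regions whose calls allow a p of 0.05. Only 7 of the 48 could reach such a p, and the 3 and the 1 compare with 33.8% and 25.9% of all regions that could. Shares this near those of all regions are no result about the lineage genes.

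Pax5 2 (chr4:44672105-44673429), inside Pax5, was called in 0 of 3 KO stimulated and 0 of 3 WT stimulated libraries, against 3 of 3 KO control and 3 of 3 WT control libraries (exact permutation test, adjusted p = 0.0169). Control ranks were 26938, 29460 and 25656 in KO and 16298, 18703 and 16469 in WT libraries. Weaker intervals remained there in 2 KO stimulated and 3 WT stimulated libraries. Pax5 1 (chr4:44624360-44625310), 85.4 kb from the start of the same gene, was called more often, in 3 KO stimulated and 3 WT stimulated libraries against 1 KO control and 0 WT control libraries (exact permutation test, adjusted p = 0.0335). Deposited intervals, called or weaker, lay there in 3 KO control and 2 WT control libraries.

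Blk 4 (chr14:63409050-63410141), inside Blk, was called in 3 KO stimulated and 2 WT stimulated libraries, against 0 KO control and 0 WT control libraries (exact permutation test, adjusted p = 0.0335). Its KO stimulated ranks were 10205, 24942 and 20585. KO control libraries held weaker intervals there and WT control libraries none. Cd6 1 (chr19:10781638-10782104), 7.2 kb below Cd6, had the same calls and adjusted p. Unlike at Blk 4, weaker intervals lay there in 2 KO control and 2 WT control libraries. None of the regions passed when every deposited interval counted, nor with a −log10 q of 10 or more as the limit. Calls over all regions were 1144 more often and 395 less often of 66900 with every interval. With the limit they were 639 and 457 of 49487. Without KO stimulated replicates 1 and 2, whose lists had the least stringent limits, the adjusted p of Pax5 1, Blk 4 and Cd6 1 was 0.0618 each, while that of Pax5 2 was 0.0262. The count called less often was 3 without WT control replicate 1, without WT stimulated replicate 1 or without KO stimulated replicate 3, and 2 without KO control replicate 2 or without KO stimulated replicate 2. Over all regions it was 2459 to 2682 with any 1 library left out.

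Within WT cells, 5 regions were gained, meaning calls in all 3 stimulated and none of the 3 control libraries, beside 9.42% of all regions: Pax5 1, Ly6g 1, Adgre1 1, Cd5 3 and Cd6 2. In the opposite direction 1 was lost, Pax5 2, beside 6.42%. Within KO cells, 2 were gained, Blk 4 and Cd6 1, beside 5.19%, and 1 lost, Pax5 2, beside 4.65%. With 3 libraries against 3 no permutation p can fall below 0.1, so these counts have no test. Whether the genotypes differ in them was not tested.

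Among regions called in all 12 libraries, calls cannot change, but ranks within the equal lists can. A rank states a region's place among the intervals of its own library. An exact two-sided permutation test of the mean log2 rank within genotype, adjusted over all 21089 such regions, was chosen after the ranks had been seen. With stimulation 6 of the 16 lineage regions ranked weaker, beside 24.9% of all such regions, and 4 ranked stronger, beside 17.7%. The 6 were Blk 2, Pax5 3, Bcl11b 4, Cd3d 1, Cd3e 1 and Spi1 2, and the 4 were Cd5 4, Cd6 3, Itgax 1 and Itgax 2. Without KO control replicate 2 the count of stronger regions was 2, beside 3069 of all 21230 such regions. In lists of the strongest 17555, where fewer regions are always called, the counts were 1 weaker and 0 stronger. Over all 11378 such regions they were 2012 and 1501.

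Bcl11b 4 (chr12:108041151-108043009), 37 kb above Bcl11b, had ranks of 11783, 16120 and 20852 in KO stimulated, against 3686, 3446 and 3436 in KO control libraries. In WT cells they were 20763, 18385 and 18749 in stimulated, against 1395, 2121 and 1948 in control libraries. Every stimulated library ranked it weaker than every control library, by 2.80 on the log2 scale of rank, a 6.95-fold higher rank number (exact permutation test, adjusted p = 0.0169). It was the largest rank difference among the 16 regions.

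**Figure D4:**
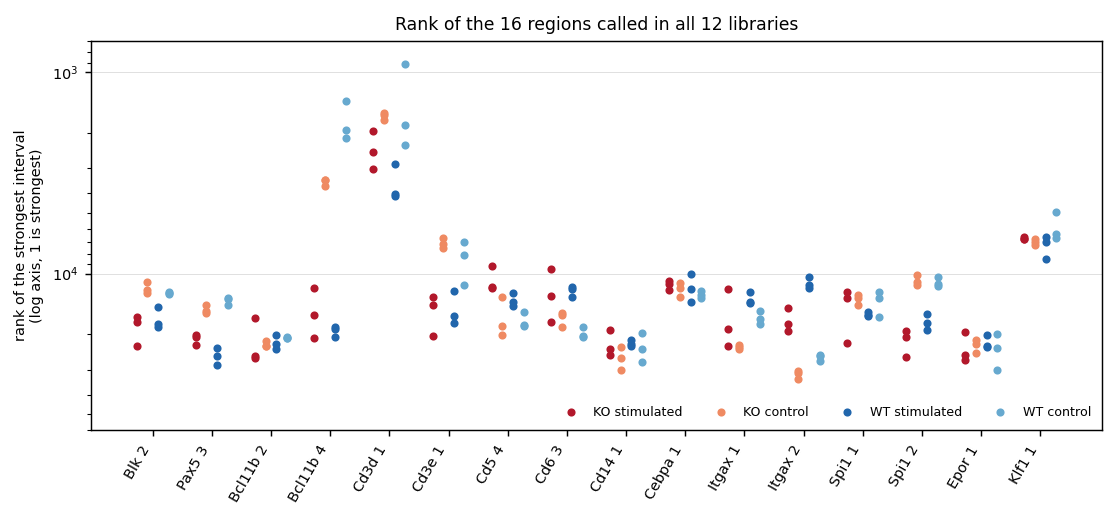
Rank in the equal lists (log axis, 1 at the top is the strongest) of the 16 regions called in all 12 libraries. Each dot is 1 library, coloured by group. Bcl11b 4 shows stimulated dots at 11783 to 20852 and control dots at 1395 to 3686, whereas stimulated and control dots overlap for Cebpa 1 and Klf1 1.

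Itgax 2 (chr7:128136776-128137848), inside the CD11c gene 7.2 kb from its start, went the opposite way. It ranked 19352, 17774 and 14792 in KO stimulated, against 30465, 31034 and 33377 in KO control libraries, and 10385, 11806 and 11362 in WT stimulated, against 27167, 25485 and 25755 in WT control libraries. All stimulated libraries ranked it stronger, by 1.05 on the log2 scale, or 2.07-fold (exact permutation test, adjusted p = 0.0169). Cd3e 1 ranked weaker by 0.97 on the log2 scale, Cd3d 1 by 0.89, Spi1 2 by 0.83, Pax5 3 by 0.70 and Blk 2 by 0.55, each with adjusted p = 0.0169 in the same exact permutation test. For Cd3d 1 stimulated and control ranks did not overlap within either genotype, but KO stimulated and WT control ranks did. In 6 of the 16 regions (37.5%), all stimulated libraries lay on one side of all control libraries, beside 23.3% of all such regions. The 6 regions in which ranks did not pass were Bcl11b 2, Cd14 1, Cebpa 1, Spi1 1, Epor 1 and Klf1 1.

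None of the 48 regions passed the test for loss of Regnase-1, but the calls of only 2 of the 48 allow a p of 0.05. Over all regions 1817 could reach such a p. For the rest the outcome was fixed in advance, so the test says nothing of a genotype effect there. KO against WT within treatment gave 0 regions called more often and 0 less often among the 48, beside 0% of all regions in both directions (exact permutation test of calls, smallest adjusted p = 0.147). An unadjusted p under 0.05 was reached by 248 regions in all and by 1 of the 48, Ebf1 5 (chr11:44923078-44923582), with p = 0.02 in the exact permutation test. Ebf1 5 was called in 0 KO stimulated and 1 KO control library, against 3 WT stimulated and 3 WT control libraries. Ranks likewise gave 0 of the 16 stronger and 0 weaker, beside 0% of all such regions, with a smallest adjusted p of 0.0911. An unadjusted p under 0.05 in the exact permutation test of ranks was reached by 3703 of 21089 regions and by 2 of the 16, Itgax 1 and Itgax 2. Both ranked weaker in KO, 1.34-fold for Itgax 1 (exact permutation test, p = 0.02) and 1.36-fold for Itgax 2 (exact permutation test, p = 0.005). A p of 0.005 is the smallest the test allows, so adjustment alone kept Itgax 2 from passing.

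Side by side, KO control against WT control cells had 2 regions called in 3 of 3 against 0 of 3, Adgre1 1 (chr17:57347005-57348272) and Cd6 2 (chr19:10800748-10801862), beside 1.14% of all regions, and 0 in the opposite direction, beside 0.892%. KO stimulated against WT stimulated cells had 0 gained, beside 1.03%, and 1 lost, Ebf1 5, beside 1.71%. Adgre1 1 and Cd6 2 were also called in all 9 libraries other than WT control, a pattern of 0.506% of all regions. These comparisons share libraries. Cd6 2, inside Cd6, ranked 7646, 6077 and 6587 in KO stimulated, 18154, 20732 and 18368 in KO control and 13176, 12189 and 10613 in WT stimulated libraries. WT control replicate 3 held a weaker interval there and WT control replicates 1 and 2 none. For Adgre1 1 all 3 WT control libraries held weaker intervals.

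**Figure D5:**
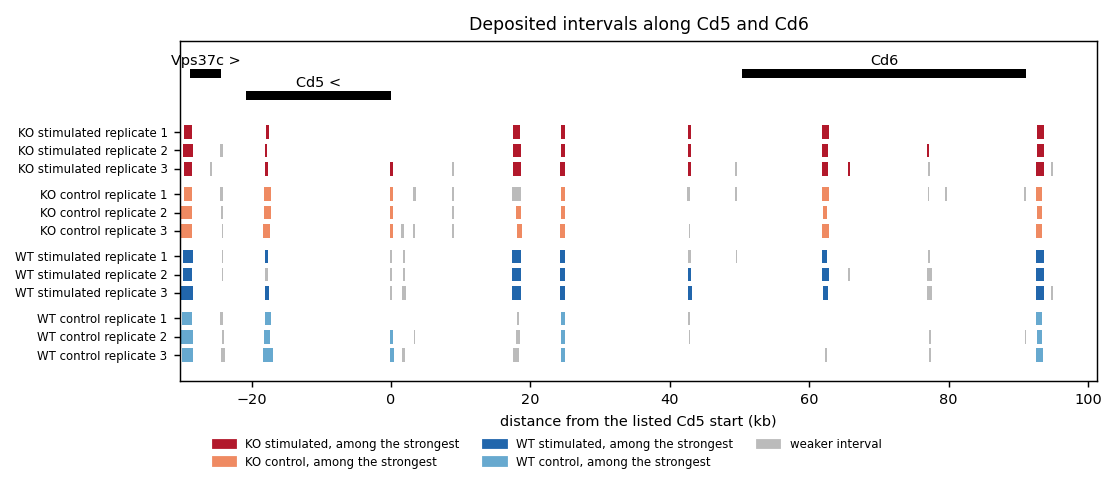
Deposited intervals of each library (rows) along Cd5 and Cd6, by distance from the listed Cd5 start in kb. Coloured bars are among the strongest intervals of their library, grey bars are weaker and black bars are gene bodies, with > or < for the direction of transcription where listed. At Cd6 2, inside Cd6, 9 libraries have coloured bars while WT control has 1 grey bar in 3 libraries.

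Per lineage, the number of called regions overlapped between groups for B cell genes and was constant for erythroid genes. B cell genes had 10, 8 and 9 called regions in KO stimulated, 8, 11 and 9 in KO control, 10, 9 and 12 in WT stimulated and 12, 10 and 12 in WT control libraries. T cell genes had 10, 12 and 11 in KO stimulated, 12 each in KO control, 10 each in WT stimulated and 9, 11 and 11 in WT control libraries. Myeloid genes had 8, 7 and 10 in KO stimulated, 11, 10 and 12 in KO control, 11, 10 and 10 in WT stimulated and 9, 9 and 10 in WT control libraries. Erythroid genes had 2 in every library. No test was made over a lineage. Myeloid counts differed between stimulated and control libraries by −2.67 in KO and 1 in WT cells on average. KO stimulated replicates 1 and 2 had the lowest myeloid counts and the least stringent lists, and they also had the fewest called regions near any gene. The range there was 28712 to 30872 in KO stimulated libraries, against 30508 to 31428 in the libraries of the other 3 groups. The part of stringency in this was not tested.

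Other genes of the same lineages were read from lists chosen with results known. Of 12 further B cell genes, 3 had a region called in 12 libraries, and of their 15 regions 0 were called more often and 2 less often with stimulation, both at Cxcr5, a chemokine receptor of B cells. Of 12 further T cell genes 10 had such a region, and of their 63 regions 4 were called more often, at Cd28, Icos and Ubash3a, and 6 less often, at Ctla4, Icos, Thy1 and Trat1. Of 12 further myeloid genes 8 had such a region, and 4 of their 24 regions were called more often, at Fcgr1, Itgam and Xcr1, and 0 less often. Of 9 further erythroid genes 2 had such a region, and 0 of their 10 regions passed in either direction. These counts use the exact permutation test above, against 6.62% and 5.08% of all regions.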

How the data were processed

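ATAC-seq was run on 100000 NK cells per library with a commercial kit, per the labels' protocols. The submitters' processing notes name Bowtie2 2.3.4.1, MACS2 2.1.1.20160309, cutadapt 4.1, deepTools 3.4.2, FastQC 0.11.9, SAMtools 1.15.1 and build mm10, with no settings. The sources used here do not give whether cut sites were shifted. The authors deposited 1 narrowPeak list per library, called per library. The deposited fold is a ratio of a peak to its own library's background, and the −log10 p and q values deposited beside it also belong to that peak alone. They served only to rank, filter or describe intervals within a library.

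Summits sharing an interval were taken as 1 interval with its strongest value, and chromosomes other than 1 to 19, X and Y were dropped. The 35110 strongest intervals of each library were merged where they shared at least 1 bp, and a region was kept when called in 2 or more libraries. Calls were tested over all regions by an exact two-sided permutation test within strata, with 400 rearrangements, a smallest p of 0.005, and Benjamini-Hochberg adjustment at 0.05. A test of log2 ranks was added after the ranks had been seen. Both were tried on simulated data. Gene bodies and promoter windows came from RefSeq tables of GRCm38.p6. Python 3.11.15, numpy 2.4.6 and pandas 2.3.3 were used. Replicate numbers were not used to pair libraries in the main tests, and whether they pair samples was not settled.

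The genes and the comparison lists were chosen with earlier results of these data known, so no test over a list was made. Regions named with positions are those past a test, gained or lost within a genotype or treatment, or the strongest always called for a gene. Alternatives were all deposited intervals, 17555 intervals, a −log10 q of 10 or more, 50% coverage of a region, summit windows, a 20 kb flank, regions called in at least 1 library, a replicate block and leaving out libraries. No genome came with the files, so peak sequences are not printed.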

Additional observations from a re-analysis of the deposited data

How the results depend on the processing

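Leaving out 1 library at a time gave 3 to 4 regions called more often and 1 to 3 called less often with stimulation, 13 to 14 genes with an always-called region, 13 to 14 with no called region, 2 to 4 regions ranked stronger and 6 to 7 ranked weaker. Of 44326 to 44776 regions in all, 3058 to 3691 were called more often and 2459 to 2682 less often. Of 21148 to 22450 always-called regions, 3069 to 4324 ranked stronger and 3990 to 6932 weaker. Leaving out 1 library gave 0 to 0 genotype calls among the lineage regions in either direction and for either test. Differences in called regions, stimulated minus control, ran from −1.08 to −0.25 for B, −1 to −0.417 for T, −1.25 to −0.5 for myeloid and 0 to 0 for erythroid genes, averaged over genotypes. The myeloid average combines −2.67 in KO and 1 in WT cells. Counting all deposited intervals gave 0 regions more often and 0 less often, beside 1144 and 395 of 66900 regions in all. The T cell difference was then 0.333 in place of −0.667. Lists cut to the strongest 17555 gave 1 more often, 2 less often, 3 genes with an always-called region, 22 with no called region, a T cell difference of 0.5, and 0 stronger and 1 weaker ranks, from 17 lineage regions in place of 48. Over all 22237 regions of these lists, 1630 were called more often and 1381 less often. Ranks were stronger for 1501 and weaker for 2012 of 11378 always-called regions. A −log10 q of 10 or more gave 0 and 0 calls, beside 639 and 457 of 49487 regions in all, and a T cell difference of 1. Requiring intervals to cover 50% of a region gave 3 regions less often, 7 genes with an always-called region, and differences of −1.67 for T, −2.17 for myeloid and −0.167 for erythroid genes. Over all 44243 regions 2173 were then called less often. Leaving out KO stimulated replicates 1 and 2 together, an alternative chosen after seeing the data, gave 0 regions more often, beside 2856 of 43711 in all. The cause of each shift was not tested. Genotype calls among the 48 regions, and among the 16 by rank, stayed at 0 under every alternative run for them. These counts of 0, as those with 1 library left out, are no evidence that genotype has no effect. In the main setting the calls of only 2 of the 48 regions could reach the unadjusted limit named above. In the exact permutation test of ranks, Itgax 2 had the smallest p possible, 0.005, and still an adjusted p of 0.0911. With the replicate number as a block the calls with stimulation were 0 more often and 1 less often, and ranks gave 0 stronger and 0 weaker. Over all 45082 regions the block gave 1625 more often and 992 less often. Ranks gave 0 stronger and 0 weaker over all 21089 always-called regions too. The block rank test therefore passed no region at all, and its counts of 0 say nothing of the lineage regions. For genotype the block gave 0 calls among the 48 regions, but 31 more often and 26 less often over all regions, against 0 and 0 without it. Same-numbered libraries correlated at −0.0307 to 0.065 in their deviations from group means, and differently numbered ones at −0.0653 to 0.0448. These values show no pairing by number, but they cannot exclude it. The smallest p under the block is 0.0312. Depth limits every statement of absence, since read totals are unknown and an uncalled region may hold a weaker signal.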
